A study of Mus musculus with 61 samples.

Results

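The region described here holds the contacts that join the 3′ end of the mouse immunoglobulin heavy chain locus, around the enhancer element hs4, to the middle of the locus. It was defined by position in a square matrix of 1 kb bins: one end of each pair lies in bins 26 to 60, called the hs4 flank here, and the other in bins 61 to 130, called the mid-locus. These limits give 35 by 70 bins, which is 8.91% of the 27495 bin pairs of a matrix, and they are set by position alone, with no threshold on a measured value. Pairs reaching bins 61 to 95 (the near side) and pairs reaching bins 96 to 130 (the far side), 35 by 35 bins each, were also summed apart.

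Class switch recombination exchanges the constant region of an antibody by joining a switch region upstream of the Ighm constant gene to one upstream of another constant gene. It needs transcription through both switch regions and the enzyme AID, which acts on the transcribed DNA. The 3′ regulatory region, of which hs4 is one element, and the intronic enhancer Emu lie at opposite ends of the constant genes, and the 3′ regulatory region is known to drive transcription of the switch regions. In RefSeq order on GRCm38.p6 the constant genes beyond the hs4 end are Igha, Ighe, Ighg2c, Ighg2b, Ighg1 and Ighg3, followed by Ighd and Ighm. The matrices carry no coordinates, so no gene was placed in a bin. The capture probes fix the order: the hs4 viewpoint is bin 32 and the IgG2a viewpoint bin 86, and the IgG1, IgG3 and Emu viewpoints follow beyond the mid-locus in that order. The mid-locus bins therefore lie between the hs4 and IgG1 viewpoints. The hs4 viewpoint is inside the hs4 flank and the IgG2a viewpoint is inside the near side.

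Tri-C is a chromosome conformation assay in which fixed chromatin is cut with NlaIII, ligated and captured with probes for a viewpoint, and reads with several fragments show which loci met the viewpoint together. Each value here is thus a contact between a hs4 flank bin and a mid-locus bin on a read that also held the viewpoint. The 61 libraries come from mouse primary B cells in medium with LPS and IL4, per the labels' growth protocol. The titles of the activation, TPL and LPS libraries name the line B18AIDKO, controls included, a name that reads as a knockout of AID. The titles of the Spt5 libraries do not name it. The activation series sampled 0, 48 and 72 h with the hs4, Emu and IgG1 probes (2, 3 and 3 samples each), and its IgG1 libraries came as clone 1 and clone 2, which were summed by replicate number. In the Spt5 series, depleted cells were activated for 62 h and treated with 4HT for the last 32 h to remove the elongation factor Spt5, and the labels state no activation time for the controls. Spt5 libraries were made with the IgG1 probe (4 control and 5 depleted libraries of clones 1 and 2) and the IgG2a probe (2 control and 3 depleted). The titles of these IgG1 libraries name an IgG1 pool capture, and those of the activation series an IgG1 capture. The titles do not say what was pooled, so the captures of the 2 series may differ. The TPL series used the Emu probe on cells activated for 72 h with no TPL or with TPL for 1 or 3 h (3 each). All titles without TPL end in _2 and none with TPL does. The titles do not say what this marks, so it cannot be told apart from treatment. The LPS series used the IgG3 probe at day 0 and day 3 (3 each), and its titles name LPS alone. In the activation series, with each of the 3 probes, the 0 h sample called replicate 1 is labelled as replicates 1 and 3 together. The labels do not say whether replicates were separate cultures or animals, so p-values measure only the spread between these samples. No expression was measured, so the labelled cell type could not be checked.

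Depth limits what single pairs can show. The libraries held an estimated 5542 to 89789 contacts (median 20695), recovered from the steps of the deposited values. Of these, 87 to 2903 (median 468) fell in the region. Between 27 and 510 of the region's pairs were above 0 in a library, and 362 were at 0 in all 61. Bins 114, 115 and 117 had no contact with the hs4 flank in any library. The libraries without TPL held an estimated 5542 to 7475 contacts. The estimate is least sure there, since 61.8% to 75.3% of the diagonal values checked came out whole. Values below are percentages of a library's matrix total, which is the same in each library, so a share falls when any other part of the matrix gains.

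The region took its largest shares with the hs4 probe, where the viewpoint itself lies in the flank. Its share of all contacts was 11.4% and 11.0% in the 0 h samples, 10.2%, 6.33% and 8.98% in the 48 h samples and 11.0%, 10.3% and 10.8% in the 72 h samples. The 48 h samples were all below the 0 h samples, and groups were apart in one direction or the other in 37.9% of the 29 features tested (28 pairs of 35 kb blocks and the region), while the 72 h samples lay among or just below them. The IgG1 probe gave 2.09% and 2.22% (0 h), 2.06%, 1.53% and 1.58% (48 h), and 2.17%, 2.08% and 1.61% (72 h). The Emu probe gave 3.26% and 2.29% (0 h), 1.93%, 2.15% and 1.28% (48 h), and 2.71%, 2.84% and 2.52% (72 h). For both of these probes the 48 h samples again lay below the 0 h samples; groups were apart in either direction in 72.4% of the features with the IgG1 probe and 65.5% with the Emu probe. Both activated times are compared with the same 0 h samples, so those comparisons are not independent of each other. The 3 probes carry the same replicate labels, so they may not be independent either.

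None of these differences over the whole region passed the test, limma on log2 shares with Benjamini-Hochberg adjustment over 29 features at 0.05. At 48 against 0 h the log2 change was -0.43 (SE 0.24, adjusted p = 0.316) with the hs4 probe, -0.33 (SE 0.17, adjusted p = 0.144) with the IgG1 probe and -0.64 (SE 0.29, adjusted p = 0.142) with the Emu probe. At 72 against 0 h the 95% intervals of the log2 change were -0.61 to 0.47, -0.56 to 0.26 and -0.70 to 0.65 for the same probes. From 48 to 72 h the values were 0.36 (SE 0.21, adjusted p = 0.418), 0.18 (SE 0.16, adjusted p = 0.696) and 0.62 (SE 0.26, adjusted p = 0.265). For the IgG1 probe the 48 h difference passed once the 48 h replicate 1 sample was left out (-0.46, adjusted p = 0.036). For the hs4 probe it passed without bins within 10 kb of the viewpoint (-0.83, adjusted p = 0.028). Contacts with an end in those bins made up a mean of 56.5% of the region at 0 h and 64.8% at 48 h. That value therefore covers only the rest of the region. The exact permutation test of the region's share passed in none of the 15 comparisons, and the smallest p it allows is 0.1, or 0.0167 for the Spt5 libraries of the IgG1 probe.

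**Figure D1:**
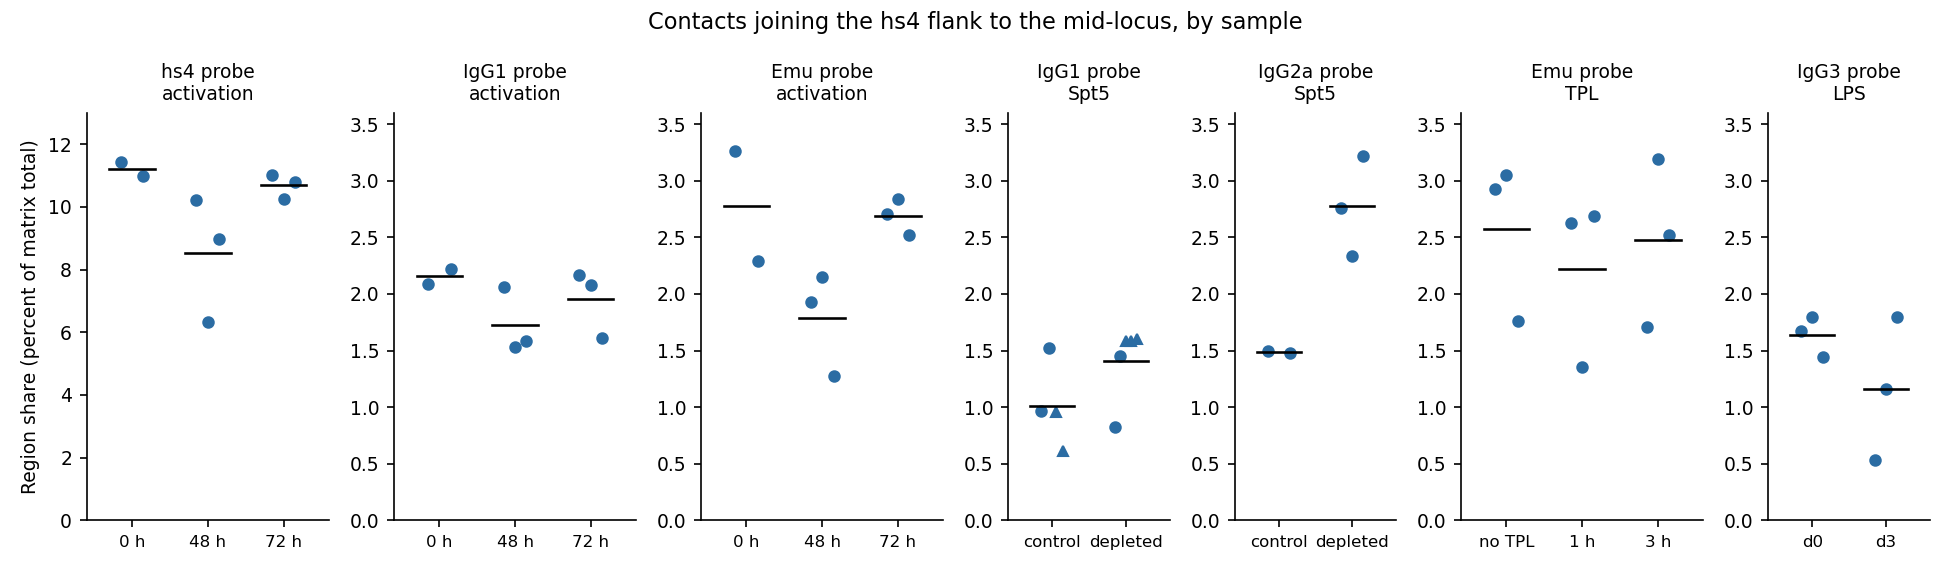
Share of all contacts (percent of the matrix total, y axis) in the region, by series, probe and condition (x axis); points are samples, bars are group means, and triangles are clone 2 in the Spt5 IgG1 panel. The hs4 panel has its own scale, and its samples sit between 6.33% and 11.4%, above every sample of the other probes.

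On activation the near side carried the change that the test called. Its share with the IgG1 probe was 1.24% and 1.19% at 0 h, 0.952%, 0.714% and 0.709% at 48 h, and 1.08%, 1.08% and 0.790% at 72 h. All activated samples lay below both 0 h samples, where groups were apart in either direction in 72.4% of the 29 features at 48 h and 79.3% at 72 h. The near side fell at 48 h by 0.62 on the log2 scale (SE 0.18, limma adjusted p = 0.021). Of the 29 features 58.6% were called in that comparison, so a call of the near side is near the background. At 72 against 0 h the near side did not pass, where 55.2% were called. Clone 1 alone gave -1.03 (adjusted p = 0.014) and clone 2 alone -0.07 (adjusted p = 0.79). The far side did not follow: its samples were at 0.850% and 1.03% (0 h), 1.11%, 0.821% and 0.873% (48 h), and 1.09%, 1.00% and 0.822% (72 h), with groups that overlapped and a log2 change of -0.01 at 48 h (SE 0.18, adjusted p = 0.94).

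The summed IgG1 samples hide a difference between clones at 0 h. Clone 1 held 2.97% and 2.54% of its contacts in the region at 0 h and clone 2 held 1.2001% and 1.91%. Contacts under 20 kb apart took 68% of the total at 0 h, 75.8% at 48 h and 72.4% at 72 h. With those pairs left out of the region and of the total, the near side's 48 h change was -0.23 (adjusted p = 0.238). Scaling by the median of ratios over 7 kb block pairs in place of the total moves the changes of all features by 0.42, and the near side then changed by -0.21 (adjusted p = 0.218). The call was also lost, with changes of about the same size, without 0 h replicate 1 (-0.60, adjusted p = 0.0873) or 2 (-0.65, 0.0755) and without 48 h replicate 2 (-0.56, 0.0592) or 3 (-0.55, 0.0578).

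The near side of the Emu probe was at 1.59% and 1.52% (0 h), 1.16%, 0.715% and 0.639% (48 h), and 1.59%, 1.53% and 1.37% (72 h). It was low in all 3 samples at 48 h, and the 72 h samples overlapped with those at 0 h. The fall at 48 h was 0.92 on the log2 scale (SE 0.28, limma adjusted p = 0.047), where 31% of the 29 features were called, and at 72 h it did not pass, where 20.7% were. The later difference, 72 against 48 h, was 0.87 (SE 0.25) with an adjusted p of 0.15, in a comparison where 0% were called. It passed once the 48 h replicate 1 sample was left out (1.13, adjusted p = 0.018). The far side gave 1.67% and 0.771% (0 h), 0.769%, 1.44% and 0.637% (48 h), and 1.12%, 1.31% and 1.15% (72 h), and its groups overlapped.

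The Emu call at 48 h was the least firm of these. Contacts under 20 kb apart made up a mean of 74.7% of the total at 0 h and 83.2% at 48 h. With them left out of the region and of the total, the near side's change was 0.28 (adjusted p = 0.608), in the other direction. Leaving out single samples gave -1.18 to -0.76 with adjusted p from 0.0083 to 0.175, and only the fit without 48 h replicate 1 kept the call.

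With the hs4 probe the near side gave 7.42% and 7.04% (0 h), 5.78%, 2.89% and 5.84% (48 h), and 5.55%, 4.999% and 6.16% (72 h). Both 0 h samples were above all 6 activated samples, where groups were apart in either direction in 37.9% of the features at 48 h and 55.2% at 72 h, but the log2 changes of -0.65 (SE 0.32, adjusted p = 0.295) and -0.38 (SE 0.32, adjusted p = 0.398) did not pass. Of the 29 features 10.3% were called at 48 h and 0% at 72 h. The far side gave 4.01% and 3.96% (0 h), 4.45%, 3.44% and 3.14% (48 h), and 5.48%, 5.26% and 4.65% (72 h). Here the 72 h samples were the highest, where 31% of the features had 72 h and 48 h samples apart in either direction, at a log2 difference of 0.36 from 0 h (SE 0.22, adjusted p = 0.281) and of 0.49 from 48 h (SE 0.20, adjusted p = 0.143).

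**Figure D2:**
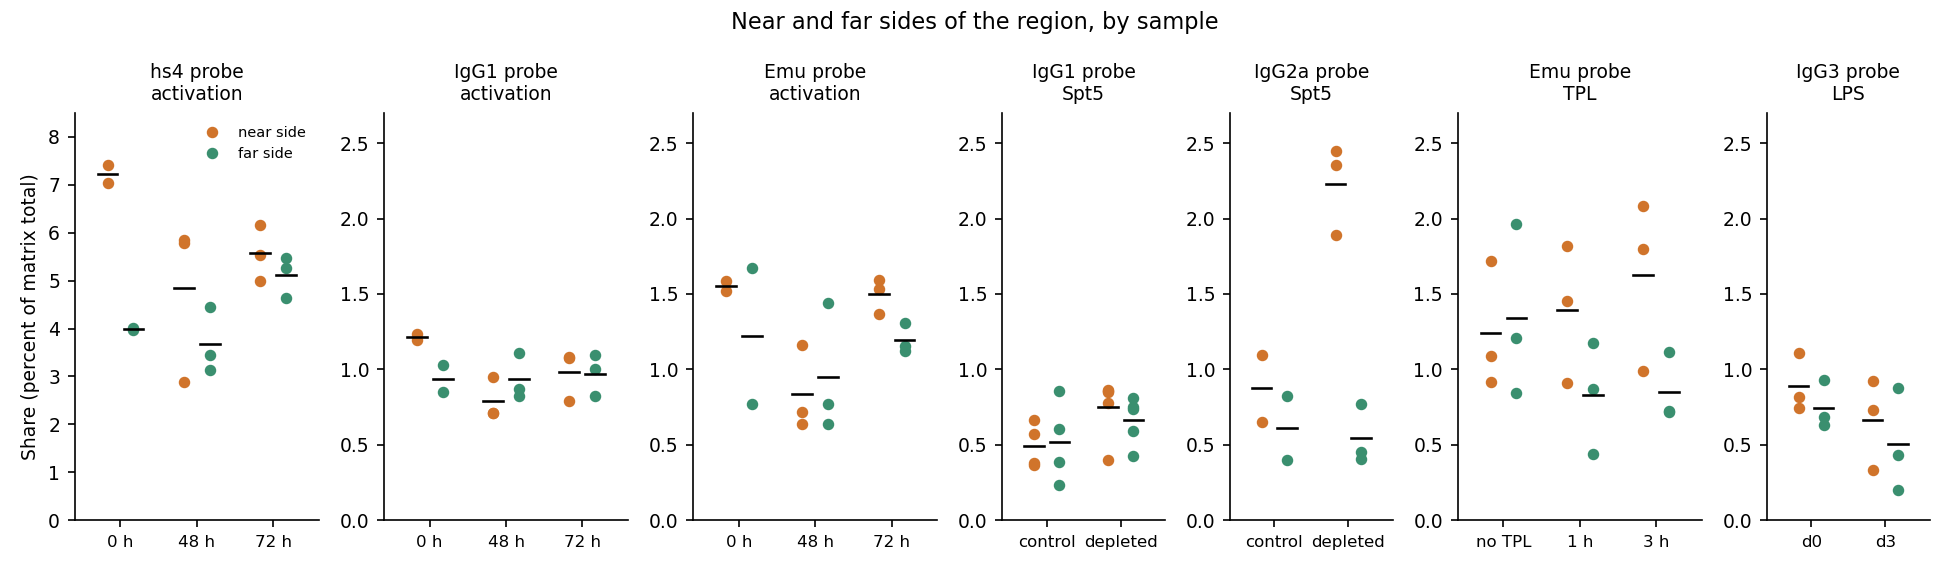
Shares of the near side (bins 61 to 95) and the far side (bins 96 to 130), in percent of the matrix total (y axis), by condition (x axis) for each series and probe; points are samples and bars are group means. With the IgG1 and Emu probes the 48 h near side points lie below both 0 h points, and with the IgG2a probe the 3 depleted near side points (1.89% to 2.45%) lie above the controls (0.651% and 1.10%).

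The far side's part of the region was higher on average after activation with the hs4 and IgG1 probes, in a comparison too small for a permutation test to pass. The far side made up 35.6% ± 0.65 (SD, n = 2) of the region at 0 h with the hs4 probe, 44.3% ± 9.72 (n = 3) at 48 h and 48.0% ± 4.38 (n = 3) at 72 h. With the IgG1 probe it made up 43.5% ± 3.91 (n = 2), 54.1% ± 0.899 (n = 3) and 49.8% ± 1.53 (n = 3), and the 3 groups did not overlap. With the Emu probe the shares were 42.5% ± 12.5, 52.2% ± 13.6 and 44.3% ± 2.63. The two-sided exact permutation p at 48 against 0 h was 0.1 with the IgG1 probe, the smallest it allows with 2 and 3 samples, and the value adjusted over 15 comparisons was 0.375.

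Along the mid-locus, contact with the hs4 flank was uneven. In 7 kb blocks, the block at bins 61 to 67 took 28.2% of the region's contacts with the hs4 probe at 0 h, and 16.9% and 16.7% at the later times. The block farthest from hs4, bins 124 to 130, held 7.75%, 12.2% and 17.5% in the same order. That last block took 12.1%, 20.1% and 19.8% with the IgG1 probe and 7.74%, 18.5% and 13.5% with the Emu probe. The block at bins 89 to 95 was low throughout, at 3.17% to 5.05% of the region in the 9 activation groups. On the other axis, the block holding the hs4 viewpoint (bins 26 to 32) made up 26.4% to 42.7% of the region in these groups. That includes the IgG1 and Emu probes, whose viewpoints lie outside the region.

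**Figure D3:**
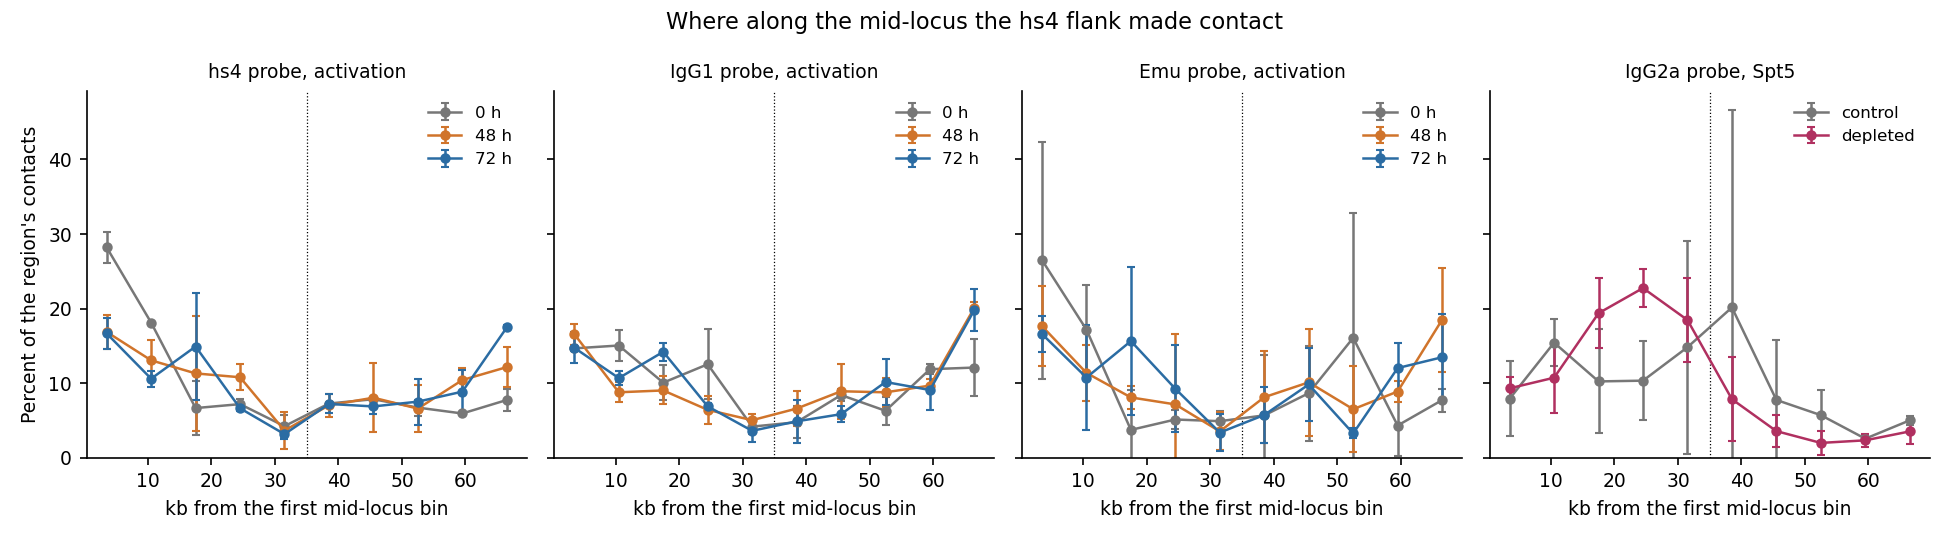
Share of the region's contacts (percent, y axis) in each 7 kb block of the mid-locus, by distance from its first bin (kb, x axis), for the activation series (hs4, IgG1 and Emu probes) and the Spt5 series (IgG2a probe); points are means, error bars are SD over samples, and the dotted line at 35 kb is the start of the far side. In the hs4 panel the first block is at 28.2% at 0 h and 16.7% at 72 h, and the last at 7.75% and 17.5%.

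One pair of blocks stood out within the region. With the hs4 probe, contacts between the block of the hs4 viewpoint (bins 26 to 32) and the first mid-locus block (bins 61 to 67) held 1.67% and 1.36% of the total at 0 h. They held 0.439%, 0.198% and 0.298% at 48 h and 0.899%, 0.614% and 0.625% at 72 h. The groups did not overlap: 48 h was lowest in every sample and 72 h lay in between. Separation from 0 h in either direction was seen in 32% of the 369 block pairs at 48 h and 34.4% at 72 h. These shares rested on 261 to 319 contacts a library at 0 h and 52 to 76 at 48 h. The fall at 48 h was 2.28 on the log2 scale (SE 0.40, limma adjusted p = 0.0033 over 369 block pairs), and all 14 other settings and left-out libraries that could be run kept the call (-2.55 to -2.01). The setting without bins within 10 kb of the viewpoint removes this pair and could not be run. At 72 against 0 h the difference was -1.09 (SE 0.40, adjusted p = 0.208).

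Only 2 of the 49 member block pairs tested with the hs4 probe were called at 48 against 0 h, both lower, where 2.44% of all 369 block pairs were called. At 72 against 0 h none of the 49 passed (5 at an unadjusted p under 0.05), where 1.63% of the 369 were called. The second pair called at 48 h joined bins 54 to 60 to bins 96 to 102 and held 0.124% and 0.310% at 0 h, 0%, 0% and 0.0200% at 48 h, and 0.0980%, 0.146% and 0.179% at 72 h. It rested on 13 to 22 contacts a library at 0 h and on 0 to 2 at 48 h. Its log2 change was -3.31 (SE 0.81, adjusted p = 0.033), and 7 of 15 alternatives lost the call, among them those without 0 h replicate 1 (adjusted p = 0.0832), 0 h replicate 2 (0.29) and 48 h replicate 2 (0.0577). Leaving out any of the 3 samples at 72 h, which share the fit, also lost it (adjusted p from 0.0575 to 0.0695).

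For the IgG1 probe 1 of 25 member block pairs tested was called at 48 against 0 h, where 33.2% of all 376 block pairs were called. It joined bins 47 to 53 to bins 68 to 74, on the near side, and held 0.0574% and 0.0839% at 0 h, 0.0163%, 0.0104% and 0.0203% at 48 h, and 0.0427%, 0.0672% and 0.0343% at 72 h. It fell at 48 h by 1.43 on the log2 scale (SE 0.43, limma adjusted p = 0.023). The call was lost without 0 h replicate 1 (adjusted p = 0.0653), 0 h replicate 2 (0.138) or 48 h replicate 2 (0.0546), and with clone 2 alone (-0.59, adjusted p = 0.576). At 72 against 0 h none of the 25 passed, with 2 at an unadjusted p under 0.05, where 36.4% of the 376 were called. The member pairs were thus called less often than the table as a whole with this probe, a difference that was not tested. For the Emu probe none of 28 passed at 48 h or 72 h (4 each at an unadjusted p under 0.05), where 8.17% and 5.45% of 257 were called. At 72 against 48 h no block pair was called with any of these probes, in the region or outside it (6, 2 and 2 members at an unadjusted p under 0.05 for hs4, IgG1 and Emu).

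The block pair with the highest mean in a group was most often the one joining the hs4 viewpoint block to the last mid-locus block (bins 26 to 32 with 124 to 130), in 5 of 18 groups. These were hs4 at 72 h, IgG1 at 48 and 72 h, Emu at 48 h and the Spt5 controls of the IgG1 probe. The pair was named for high means in activated groups among others. Its comparisons with 0 h are therefore not independent of that choice. With the hs4 probe it held 0.403% and 0.332% at 0 h, 0.537%, 0.632% and 0.421% at 48 h, and 1.14%, 0.745% and 0.939% at 72 h. The 3 groups did not overlap, with 0 h lowest and 72 h highest, where 32% and 34.4% of the 369 block pairs were apart from 0 h at 48 and 72 h, but the log2 difference of 1.31 between 72 and 0 h did not pass (SE 0.38, adjusted p = 0.079). The IgG1 probe gave 0.0940% and 0.122% (0 h), 0.190%, 0.179% and 0.150% (48 h), and 0.222%, 0.140% and 0.138% (72 h). Both activated groups lay above 0 h, as in 59% and 61.4% of the 376 block pairs, which were apart in either direction, at log2 differences of 0.61 (SE 0.29, adjusted p = 0.123) and 0.54 (SE 0.29, adjusted p = 0.165). Under median-of-ratios scaling these came to 0.97 (adjusted p = 0.019) and 0.80 (adjusted p = 0.037), the only call among 18 alternatives at either time. The Emu probe gave 0.0130% and 0.0395% at 0 h on 2 and 7 contacts, and 0.0980%, 0.425% and 0.186% at 48 h on 42 to 113 contacts. That difference of 2.41 did not pass either (SE 0.86, adjusted p = 0.082).

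Next most often, in 4 of 18 groups, the highest pair joined bins 54 to 60 to bins 61 to 67, which are neighbours on the matrix. The pair of bins 26 to 32 with 61 to 67 was highest in 3 groups, the hs4 probe at 0 h among them. Within a group, samples ranked the 50 member block pairs alike to different degrees. Pearson's r between samples is given as a description over 50 block pairs that share a library. In the activation series r was 0.40 to 0.67 with the hs4 probe, 0.50 to 0.72 with the IgG1 probe and 0.28 to 0.48 with the Emu probe. In the Spt5 series it was 0.34 to 0.54 with the IgG1 probe. With the IgG2a probe it was 0.057 in controls and 0.38 to 0.41 in depleted cells. It was -0.08 to 0.12 in the libraries without TPL, 0.15 to 0.395 in those with TPL and 0.13 to 0.345 in the LPS series.

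**Figure D4:**
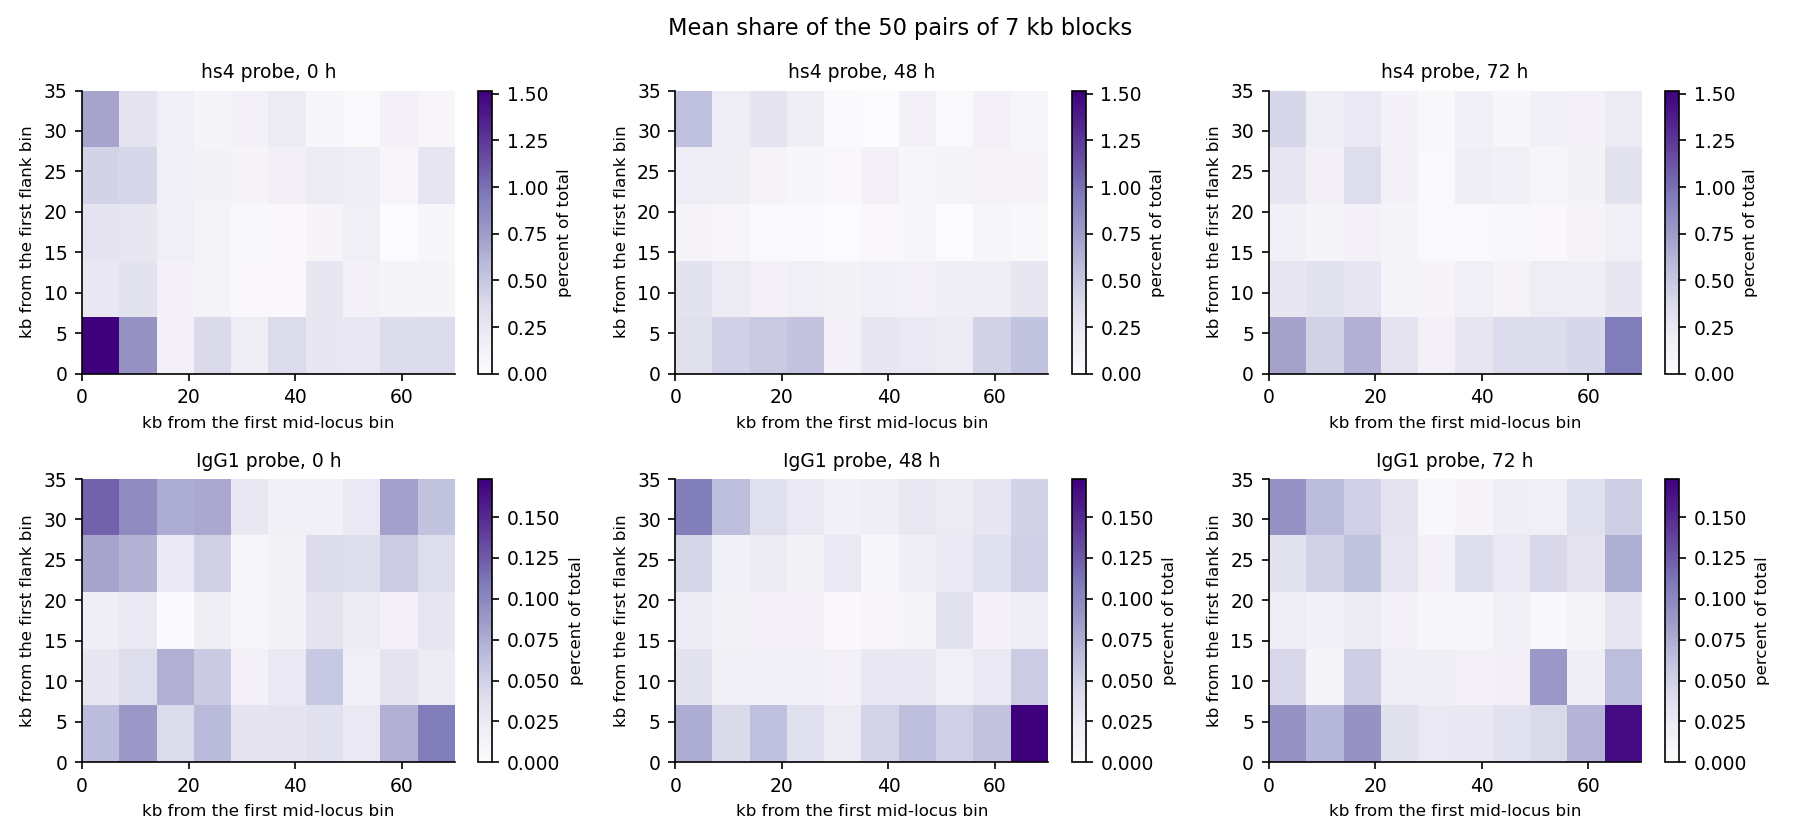
Mean share of the matrix total (percent, colour) in each of the 50 pairs of 7 kb blocks, by kb along the mid-locus (x axis) and kb along the hs4 flank (y axis), at 0, 48 and 72 h with the hs4 probe (top) and the IgG1 probe (bottom). In the hs4 row the darkest pair at 0 h is the one of bins 26 to 32 with 61 to 67 (mean 1.52%), and at 72 h it is the one with bins 124 to 130 (0.943%).

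With the IgG2a probe, whose viewpoint lies in the near side, the region's share was higher in Spt5-depleted cells than in controls. The labels give no activation time for the controls, so depletion and activation time cannot be told apart. The exact permutation p was 0.1, the smallest it allows, and 0.375 after adjustment over 15 comparisons. The region held 1.49% and 1.48% of contacts in controls and 2.76%, 2.34% and 3.22% in depleted cells, so every depleted sample was above both controls, a separation that 62.1% of the 29 features showed in one direction or the other. It rose by 0.88 on the log2 scale (SE 0.20, limma adjusted p = 0.041), where 24.1% of the 29 features were called, all of them higher. The near side rose from 1.10% and 0.651% to 2.35%, 1.89% and 2.45%, by 1.37 (SE 0.30, adjusted p = 0.038). The far side held 0.397% and 0.825% in controls and 0.408%, 0.451% and 0.770% in depleted cells, with a log2 difference of -0.13 (SE 0.46, adjusted p = 0.788) and groups that overlapped. The far side's share of the region was 26.6% and 55.9% in controls and 14.8%, 19.3% and 23.9% in depleted cells.

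Several values moved with this rise. The share of contacts under 20 kb apart was 93.4% in controls and 84.8% in depleted cells, and with those pairs left out of the region and of the total the change of the region was -0.34 (adjusted p = 0.627) and that of the near side 0.25 (adjusted p = 0.693). Contacts with an end within 10 kb of the IgG2a viewpoint made up 35.3% of the region in controls and 59.3% in depleted cells, and without them the changes were 0.20 (adjusted p = 0.629) and 0.78 (adjusted p = 0.166). Median-of-ratios scaling moves all features by -0.30, which left 0.58 (adjusted p = 0.124) for the region and 1.07 (adjusted p = 0.0628) for the near side. Leaving out any 1 of the 5 samples lost the call of the region (0.77 to 0.998, adjusted p from 0.0695 to 0.153), and any but control replicate 1 lost that of the near side. None of the 24 member block pairs tested passed (7 at an unadjusted p under 0.05, all higher), where 3.61% of 194 were called.

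Depletion gave no call with the IgG1 probe. The region held 0.965% and 1.52% in clone 1 controls and 0.958% and 0.611% in clone 2 controls. Depleted clone 1 held 0.826% and 1.45%, and depleted clone 2 held 1.58%, 1.58% and 1.61%. Clone 2 was higher in all 3 depleted samples than in its controls, while in clone 1 the groups overlapped. With clone as a term the log2 change was 0.50 (SE 0.30, limma adjusted p = 0.263), where 27.6% of the 29 features were called. Clone 2 alone gave 1.04 (adjusted p = 0.013) and clone 1 alone -0.14 (adjusted p = 0.877), and without the depleted clone 1 replicate 3 library the change was 0.76 (adjusted p = 0.037). The share of contacts under 20 kb apart was 88.7% in controls and 84.6% in depleted cells, and with those pairs left out the region's change was -0.00073 (adjusted p = 0.997). The near side changed by 0.55 (SE 0.28, adjusted p = 0.193), and without the same library by 0.80 (adjusted p = 0.022). The far side changed by 0.48 (SE 0.37, adjusted p = 0.405).

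Among the 9 member block pairs tested with the IgG1 probe none passed (1 at an unadjusted p under 0.05), where 6.19% of 226 were called. The neighbouring blocks at bins 54 to 60 and 61 to 67 held 0.0670% ± 0.0237 (SD, n = 4) in controls and 0.162% ± 0.0799 (n = 5) in depleted cells, a log2 difference of 0.94 (SE 0.39, adjusted p = 0.164). Without the depleted clone 1 replicate 3 library this was 1.23 (adjusted p = 0.038), and 2 of 20 alternatives called the pair. That library had the lowest region and near side shares of the depleted libraries. The pair was named for its high mean in depleted cells, so its comparison with controls is not independent of that choice. The change of the near side was larger with the IgG2a than with the IgG1 probe by 0.82 on the log2 scale, but the difference itself did not pass (SE 0.46, limma interaction, adjusted p = 0.215).

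TPL and LPS gave no call in the region. With the Emu probe the region held 2.93%, 3.05% and 1.76% without TPL, 2.63%, 1.35% and 2.69% after 1 h and 1.71%, 3.20% and 2.52% after 3 h, and the 3 groups overlapped. The log2 difference was -0.24 at 1 h (95% interval -1.17 to 0.70) and -0.06 at 3 h (-0.997 to 0.873); these intervals hold a fall of 0.9 and a rise of 0.6. The far side held 1.21%, 1.97% and 0.841% without TPL, 1.17%, 0.441% and 0.870% after 1 h, and 0.717%, 1.12% and 0.723% after 3 h. Its log2 differences of -0.70 (SE 0.46, limma adjusted p = 0.438) and -0.59 (SE 0.46, adjusted p = 0.408) did not pass, in comparisons where 0% of the 29 features were called. None of 29 member block pairs passed in the 3 comparisons (1, 0 and 0 at an unadjusted p under 0.05), where 2.1%, 0% and 0% of 238 were called.

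With the IgG3 probe the region held 1.67%, 1.79% and 1.45% at day 0 and 0.532%, 1.16% and 1.80% at day 3. The day 3 samples spread from the lowest to the highest value of the series. The log2 difference was -0.64 (SE 0.45, limma adjusted p = 0.465), where 0% of the 29 features were called. Of 15 member block pairs tested none passed (1 at an unadjusted p under 0.05), where 0.316% of 316 were called.

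**Figure D5:**
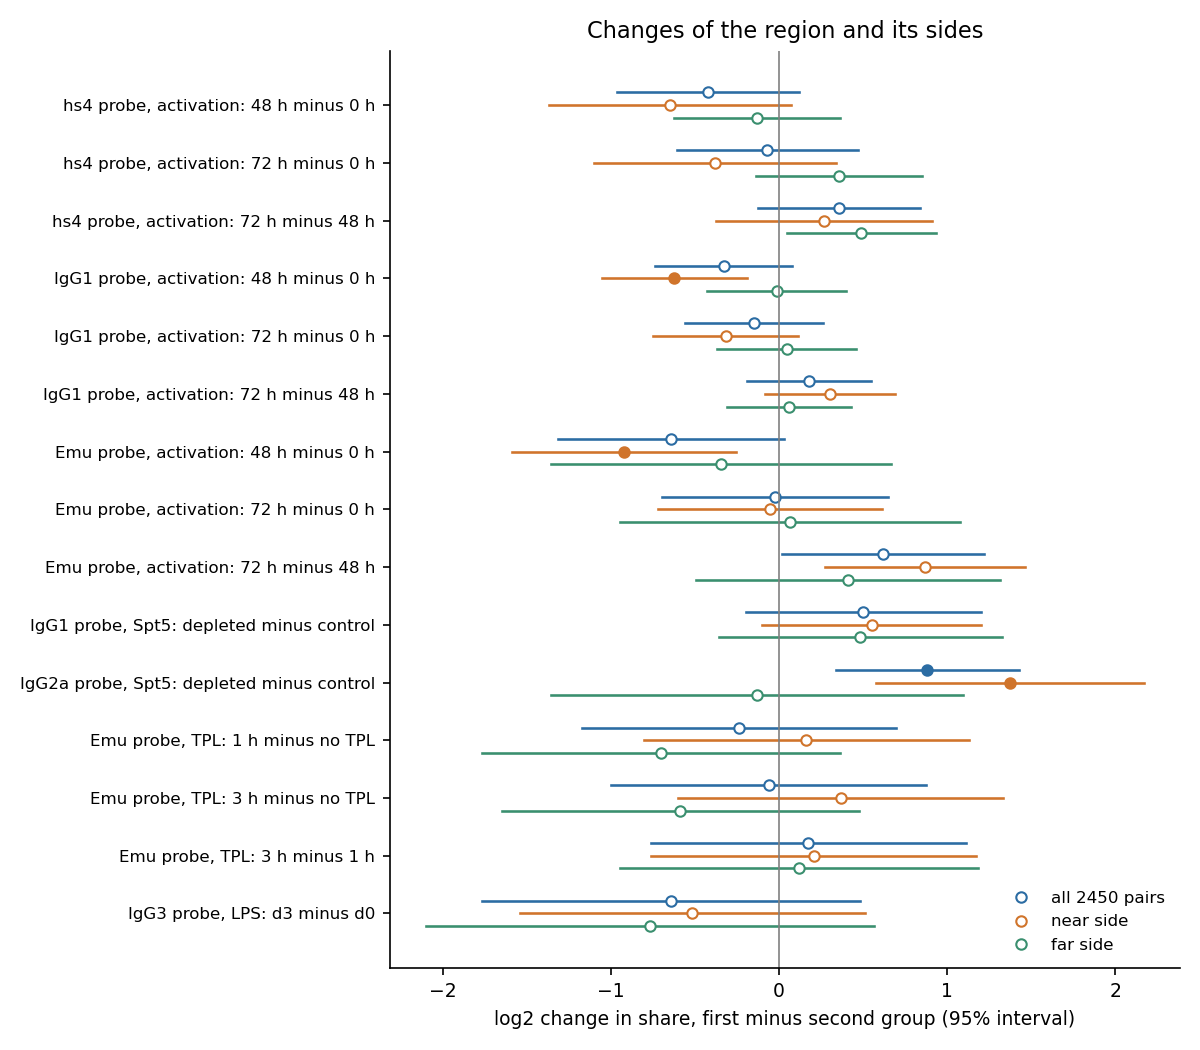
Log2 change in share (x axis) of the region and of the near and far sides in the 15 comparisons (y axis); points are limma estimates, lines are 95% intervals, and filled points have an adjusted p under 0.05. The 4 filled points are the near side at 48 against 0 h with the IgG1 and Emu probes, and the region and its near side after Spt5 depletion with the IgG2a probe.

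The region was also expressed as a share of all contacts that have an end in one of its sides, a share that falls when that side gains contacts elsewhere. Of contacts with an end in the mid-locus, 32.0% ± 1.57 (SD, n = 2) reached the hs4 flank at 0 h with the hs4 probe, 22.5% ± 3.15 (n = 3) at 48 h and 27.1% ± 0.473 (n = 3) at 72 h. With the IgG1 probe the same share was 5.16% ± 0.197 (n = 2), 7.47% ± 0.803 (n = 3) and 9.40% ± 1.196 (n = 3). With the Emu probe it was 9.58% ± 1.27 (n = 2), 12.6% ± 2.02 (n = 3) and 14.8% ± 0.452 (n = 3). The activated samples lay below the 0 h samples with the hs4 probe and above them with the other probes, without overlap. The share of contact ends in the mid-locus went the other way: its means at 0, 48 and 72 h were 25.3%, 30.1% and 30.5% with the hs4 probe, 33.2%, 18.9% and 16.4% with the IgG1 probe and 23.3%, 11.6% and 15.2% with the Emu probe. The region's own share of all contacts was lower or overlapped with 0 h for all 3 probes. Each of these 6 comparisons with 0 h gave an exact permutation p of 0.1, the smallest it allows, and 0.188 after adjustment over 15 comparisons.

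Seen from the other end, the mid-locus share of the hs4 flank's contacts was lower in all activated samples of the IgG1 probe than at 0 h. Of contacts with an end in the flank, 21.5% ± 0.701 (SD, n = 2) reached the mid-locus at 0 h, 12.1% ± 1.85 (n = 3) at 48 h and 12.6% ± 1.52 (n = 3) at 72 h, while the flank's share of contact ends had means of 7.11%, 10.9% and 11.8%. Among the flank's contacts that left it with this probe, those to the last 34 bins of the matrix, at the Emu end, made up 12.9% at 0 h, 24.6% at 48 h and 24.7% at 72 h, while those to the near side made up 21.0%, 12.04% and 13.2%. With the hs4 probe the share of flank contacts that reached the mid-locus was 19.9% ± 1.08 (n = 2), 18.8% ± 5.04 (n = 3) and 22.02% ± 1.10 (n = 3). With the Emu probe it was 14.0% ± 3.39 (n = 2), 8.18% ± 1.63 (n = 3) and 12.4% ± 0.630 (n = 3). After Spt5 depletion with the IgG2a probe it was 29.2% ± 2.57 (n = 3), against 19.9% ± 2.69 (n = 2) in controls. The exact permutation test, two-sided and adjusted over 15 comparisons, called none of these (lowest adjusted p = 0.25).

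If contact ends paired independently of position, the share of the region would be 2 times the product of the share of contact ends in the flank and that in the mid-locus. The ratio of the observed share to this value was 0.119 to 0.548 over the 53 samples, below 1 in each. The product takes no account of distance. Contacts under 20 kb apart took group means of 61.1% to 93.4% of the total. Only 190 of the region's pairs are that close, so a ratio below 1 cannot tell the region from distance. In the Spt5 series with the IgG2a probe the ratio was 0.154 ± 0.0245 (SD, n = 2) in controls and 0.268 ± 0.0266 (n = 3) in depleted cells. Contacts under 20 kb apart took 93.4% and 84.8% of the total there, and whether the ratio differs beyond this was not tested. The near side was also ranked among pairs of next-door blocks, which are 35 kb long except for a shorter one at either end. It had rank 1 of 6 in all 3 hs4 groups and rank 2 with the IgG2a probe, the probes whose viewpoint it holds. Without the viewpoint, it had rank 2 or 3 with the Emu probe in the activation series and rank 5 with the IgG1 and IgG3 probes. None of the differences between probes in the change of the region with activation passed the limma interaction test. That test treated samples of different probes as independent, which was not checked, and the 3 probes carry the same replicate labels. For the hs4 against the IgG1 probe at 48 h the difference of the log2 changes was -0.09 (SE 0.33, adjusted p = 0.912), and for the hs4 against the Emu probe it was 0.22 (SE 0.33).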

How the data were processed

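The deposited values are a Tri-C signal per pair of 1 kb bins, scaled by the authors so that each matrix sums to 300000; Bowtie2 and mm9 are named in the submitters' processing notes. Whole contacts were estimated from the steps of the signal, with a divisor inferred from the values, and were used for depth and for the voom alternative only. The fit was checked on values under 20 contacts, within 0.04 of a whole number or a wider limit where divisors were large. Off the diagonal at least 99.3% of these values came out whole in each library. On the diagonal the lowest value was 61.8%, in a library without TPL, and the median was 98.6%. The 61 matrices gave 53 samples after the activation clones of the IgG1 probe were summed. Shares were tested as log2(signal + 50) with limma 3.58.1 (R 4.3.3), which understates changes of low values: over 28 pairs of 35 kb blocks plus the region, and over pairs of 7 kb blocks with a mean of at least 100 of the total. P-values were adjusted with the Benjamini-Hochberg method at 0.05. Single measures were compared with exact permutation tests. The fits were tested on simulated data. Named block pairs are, per comparison, up to 3 called in each direction whose groups do not overlap, and per group the one with the highest mean; the pair of bins 54 to 60 with 61 to 67 in the Spt5 series is of the last kind. The members, blocks and tests were chosen with earlier results of these data known. No sequences or coordinates are given, since the matrices carry none.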

Additional observations from a re-analysis of the deposited data

Results flagged for a closer look

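In the 5 depleted libraries of the Spt5 series with the IgG1 probe, clone 1 replicate 3 stood apart from the others on 3 measures. It held 0.826% of its contacts in the region against 1.45% to 1.61% in the other 4 libraries, and 0.399% in the near side against 0.776% to 0.862%. Of its contacts with an end in the mid-locus, 2.66% reached the hs4 flank. Its gap to the next library, relative to the group's range, exceeded Dixon's critical value in each case. In all, 14 sets of values were examined in this way, and chance marks about 1 in 20 such groups. The 3 measures share contacts of the region, and the 14 sets overlap in the same way. They are therefore not independent observations.

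The share of mid-locus contacts that reached the hs4 flank went in opposite directions between probes on activation. With the hs4 probe it was lower in every activated sample, and with the IgG1 and Emu probes higher. The change from 0 to 48 h differed by -11.86 percentage points between the hs4 and IgG1 probes and by -12.56 between the hs4 and Emu probes. From 0 to 72 h the differences were -9.173 and -10.14. The share of flank contacts that reached the mid-locus was higher at 72 h than at 0 h in all samples of the hs4 probe and lower in all samples of the IgG1 probe, a difference of 11.08 points. These differences were not tested. The denominators of the compared shares were contacts with an end in the mid-locus or in the flank. Shares of contact ends are a different quantity. The share of contact ends in the mid-locus had means of 25.3%, 30.1% and 30.5% at 0, 48 and 72 h with the hs4 probe. It was 33.2%, 18.9% and 16.4% with the IgG1 probe and 23.3%, 11.6% and 15.2% with the Emu probe. The flank's share of ends was 44.0%, 36.6% and 37.4% with the hs4 probe and 7.11%, 10.9% and 11.8% with the IgG1 probe.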

How the results depend on the processing

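Values are log2 changes in share unless counts of called 7 kb block pairs of the region are named; the cause of each shift was not tested except where a setting removes pairs or samples. The block pair of bins 26 to 32 with 61 to 67 (hs4 probe, 48 against 0 h) stayed called in every setting run. The setting without bins within 10 kb of the viewpoint is not among these, since it removes the pair. The near side at 48 h kept its call in 13 of 21 alternatives with the IgG1 probe and 4 of 18 with the Emu probe; after Spt5 depletion with the IgG2a probe 7 of 15 kept that of the near side and 6 of 15 that of the region. Median-of-ratios scaling reversed the far side with the hs4 probe at 48 against 0 h (0.066) and with the IgG1 probe at 48 against 0 h (0.40, adjusted p = 0.038) and 72 against 48 h (-0.039). It reversed the region with the hs4 probe at 72 h (0.0073) and with the IgG1 probe at 48 h (0.087) and 72 h (0.17), left 0.58 for the IgG2a region, and called 2 block pairs with the IgG1 probe at 72 h. Leaving out pairs under 20 kb apart reversed the far side with hs4 at 48 h (0.29), with IgG1 at 48 h (0.40, adjusted p = 0.049) and 72 against 48 h (-0.13), and with Emu at 48 h (0.25). It reversed the near side with IgG1 at 72 h (0.037) and with Emu at 48 h (0.28) and 72 h (1.04). It also reversed the region with hs4 at 48 h (0.041) and 72 h (0.14), IgG1 at 48 h (0.13) and 72 h (0.16), Emu at 48 h (0.26) and 72 h (0.68), and after Spt5 depletion with IgG1 (-0.00073) and IgG2a (-0.34). Leaving out bins within 10 kb of the viewpoint called the rest of the region with hs4 at 48 h (-0.83) with 1 block pair. It left 0.20 for the rest of the IgG2a region. It reversed the far side with hs4 at 72 h (-0.0069), IgG1 at 72 h (-0.015) and Emu at 48 h (0.020), and the Emu probe's near side (0.079) and region (0.11) at 72 h. Differences of changes between probes reversed for hs4 minus Emu (-0.56) and IgG1 minus Emu (-0.14) at 48 h, hs4 minus IgG1 at 72 h (-0.12) and IgG2a minus IgG1 on depletion (-0.33). Edges drawn in by 5 bins called the Spt5 IgG1 region (0.89, adjusted p = 0.049). They reversed the region with hs4 at 72 h (0.040) and Emu at 72 h (0.50), the far side with IgG1 at 72 h (-0.11), the near side with Emu at 72 h (0.26), and with TPL the far side (0.22 at 1 h, 0.33 at 3 h) and region (0.26, 0.61). Limma-voom on recovered contacts called the region with hs4 at 48 against 0 h (-0.57) and 72 against 48 h (0.46) and with IgG1 at 48 h (-0.46). It reversed the far side with IgG1 at 72 h (-0.048), Emu at 48 h (0.64) and IgG2a (0.27), and the Emu region at 72 h (0.32). It called 1 block pair with hs4 at 72 h, 4 and 3 with IgG1 at 48 and 72 h, 3 and 1 with Emu at 48 and 72 h, 2 with Emu at 72 against 48 h, and 4 and 2 after depletion with IgG1 and IgG2a. A pseudocount of 200 and 5 kb blocks each left 1 block pair with hs4 at 48 h, and 5 kb blocks left 0 with IgG1 (1 with 7 kb blocks).

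Clone 1 alone called the IgG1 region at 48 h (-0.69) with 3 block pairs and reversed the far side at 72 h (-0.30). Clone 2 alone reversed the IgG1 far side (0.44) and region (0.18) at 48 h and the near side (0.18) and region (0.35) at 72 h, with 0 block pairs called at 48 h and 2 at 72 h; clones apart with clone as a term gave 0.053 for the far side at 48 h and 1 block pair at 72 h. In the Spt5 IgG1 libraries, splits chosen after seeing the data gave far side -0.50 and region -0.14 for clone 1, and 1.04 for the region with 1 block pair for clone 2. Replicate numbers gave no clear sign of pairing: correlations of same-numbered deviations ranged from -0.147 to 0.186, and the only set above 0.1 throughout had 2 pairs. In groups of 2 samples the deviations mirror each other, so this check cannot exclude pairing. A replicate block gave 0.064 for the IgG1 far side at 48 h, 0.061 and 0.11 for the Emu near side and region at 72 h, 0.77 for the IgG2a region (adjusted p = 0.209) and 1 block pair with IgG1 at 72 h; the near side calls were lost with IgG2a (1.30, adjusted p = 0.060) and with Emu at 48 h (-0.81, adjusted p = 0.088).

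Leaving out 1 library at a time gave these lowest and highest values. The near side ranged from -0.066 to 0.44 with hs4 at 72 against 48 h and from -0.10 to 0.0085 with Emu at 72 h. The far side ranged with IgG1 from -0.15 to 0.12 at 48 h, -0.088 to 0.18 at 72 h and -0.028 to 0.19 at 72 against 48 h, with Emu from -0.90 to 0.20 at 48 h and -0.49 to 0.61 at 72 h, and with IgG2a from -0.64 to 0.38. The region ranged from -0.46 to -0.25 with IgG1 at 48 h, -0.28 to 0.23 with Emu at 72 h, 0.23 to 0.76 with Spt5 IgG1, 0.77 to 0.998 with IgG2a, and with TPL from -0.49 to 0.085 at 1 h and -0.32 to 0.18 at 3 h. Between probes, the differences ranged at 48 h from -0.24 to 0.10 (hs4 minus IgG1) and -0.035 to 0.47 (hs4 minus Emu), and at 72 h from -0.049 to 0.16 (hs4 minus IgG1), -0.30 to 0.21 (hs4 minus Emu) and -0.38 to 0.13 (IgG1 minus Emu). Called block pairs numbered 1 to 2 with hs4 at 48 h (1 without 0 h replicate 1 or 2, 48 h replicate 2 or any 72 h sample) and 0 to 1 at 72 h (1 without 0 h replicate 2 or 48 h replicate 2 or 3). They numbered 0 to 2 with IgG1 at 48 h (2 without 48 h replicate 1, 0 without 48 h replicate 2) and 0 to 1 at 72 h (1 without 72 h replicate 2), and 0 to 1 with Emu at each time (1 without 0 h replicate 2). After depletion they numbered 0 to 1 with IgG1 (1 without depleted clone 1 replicate 3) and 0 to 4 with IgG2a (4 without control replicate 1). Where 1 sample of a group was left, it was assumed to vary like the others. A median of 468 contacts a library in the region limits what its parts can show.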
